A study of Homo sapiens with 6 samples.

Results

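The hypoxia response genes examined here are HIF1A, EPAS1, EGLN1, EGLN3, VEGFA, CA9, BNIP3, ADM, ANKRD37 and NDRG1. They were chosen by name, with earlier results of these data known, as the rows of the deposited count table that carry these 10 symbols. All 10 were found among the 33451 genes listed. The expression data came from MDA-MB-453, an established human breast cancer cell line with luminal features. The 25(OH)D group received 25(OH)D (the main circulating vitamin D metabolite) at 100 nM over 5 days of culture, and the control group received the alcohol solvent alone for the same time. Each group had 3 mRNA sequencing libraries, and neither group was reported to be placed in low oxygen. All libraries came from the same line, so p-values measure the spread between these libraries, which may be in part technical. The comparison asks how the expression of these genes differed after culture with 25(OH)D.

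Cells respond to low oxygen mainly through the hypoxia-inducible factors (HIFs), transcription factors made of an oxygen-regulated alpha subunit, encoded by HIF1A or EPAS1, and a stable beta subunit, encoded by ARNT. When oxygen is present, the prolyl hydroxylases EGLN1, EGLN2 and EGLN3 mark the alpha subunit for capture by the VHL protein and for degradation, so much of the control of HIF acts on protein and not on mRNA. In low oxygen the alpha subunit persists and binds hypoxia response elements in target genes, which act in vessel growth (VEGFA, ADM), pH control (CA9), mitophagy (BNIP3), glycolysis and feedback on the sensor itself (EGLN1, EGLN3).

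The promoters of the members are shown first, because the short core of the hypoxia response element can be read from them directly. RefSeq promoter windows, from 250 bases before to 50 bases after the gene start on GRCh38.p14, were found for 8 of the 10 members, with 2 starts for HIF1A. VEGFA and NDRG1 had no entry. The core was searched as ACGTG, which reads CACGT when it lies on the other strand. The related core GCGTG, which there reads CACGC, was searched in the same way. ACGTG or its reverse complement occurred in 21.4% of 35116 promoter windows, GCGTG or its reverse complement in 36.5%, and either of them in 48.4%. Of the 8 members with a window, 7 held at least 1 core of either kind and 4 held ACGTG, namely EGLN1, CA9, BNIP3 and ANKRD37. The second HIF1A window held none, and the shares above count windows and not genes. Both cores contain CG, and GC content was 62.0% to 80.7% in the first window of each of the 8 members. The shares were not matched for GC content. The 4 windows printed below are those of the prolyl hydroxylase pair EGLN1 and EGLN3, and of BNIP3 and ANKRD37, which held the most cores. They lie on the minus strand at chr1:231422238-231422537 (EGLN1), chr14:33951025-33951324 (EGLN3) and chr10:131981874-131982173 (BNIP3), and on the plus strand at chr4:185396591-185396890 (ANKRD37). Each is written 5′ to 3′ along the gene, and capitals mark every core on either strand. The RefSeq start need not be the outermost start of the gene model on which reads were counted, and for all 4 genes it lies inside that model.
EGLN1: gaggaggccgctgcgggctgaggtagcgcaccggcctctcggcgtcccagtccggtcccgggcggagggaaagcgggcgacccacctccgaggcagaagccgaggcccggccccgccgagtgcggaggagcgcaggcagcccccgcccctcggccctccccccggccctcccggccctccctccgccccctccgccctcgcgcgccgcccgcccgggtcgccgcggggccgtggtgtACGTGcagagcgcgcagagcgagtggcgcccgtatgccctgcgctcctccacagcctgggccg
EGLN3: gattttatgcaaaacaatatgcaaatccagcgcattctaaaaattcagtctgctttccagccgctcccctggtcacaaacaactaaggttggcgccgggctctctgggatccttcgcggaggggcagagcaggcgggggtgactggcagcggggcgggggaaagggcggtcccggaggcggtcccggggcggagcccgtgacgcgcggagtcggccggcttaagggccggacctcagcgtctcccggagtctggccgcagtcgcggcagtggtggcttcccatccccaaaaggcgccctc
BNIP3: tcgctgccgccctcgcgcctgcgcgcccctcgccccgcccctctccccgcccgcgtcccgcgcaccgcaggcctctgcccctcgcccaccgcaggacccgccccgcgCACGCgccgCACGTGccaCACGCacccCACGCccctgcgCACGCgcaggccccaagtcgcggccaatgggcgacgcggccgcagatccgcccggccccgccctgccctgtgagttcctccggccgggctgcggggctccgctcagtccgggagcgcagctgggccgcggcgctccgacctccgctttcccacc
ANKRD37: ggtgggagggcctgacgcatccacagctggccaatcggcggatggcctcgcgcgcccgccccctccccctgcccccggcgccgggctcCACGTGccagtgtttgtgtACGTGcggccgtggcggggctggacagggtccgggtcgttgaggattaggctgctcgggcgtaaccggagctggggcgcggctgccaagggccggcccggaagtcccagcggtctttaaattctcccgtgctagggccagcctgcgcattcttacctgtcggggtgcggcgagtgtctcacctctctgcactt

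The EGLN1 window held a single ACGTG, at position -13 from the gene start, and the EGLN3 window held no core. In the BNIP3 window, ACGTG was read on both strands at overlapping positions -134 and -133, so the capitals there spell a palindrome, and 4 further cores of the CACGC form stood between positions -143 and -104. The ANKRD37 window held an overlapping pair of the same kind, at -162 and -161, and another ACGTG at -143. CA9 had a CACGT at -18, and EPAS1, ADM and the first start of HIF1A each had a GCGTG. A match of 5 letters is a description of the sequence and no evidence that a factor bound there.

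**Figure D1:**
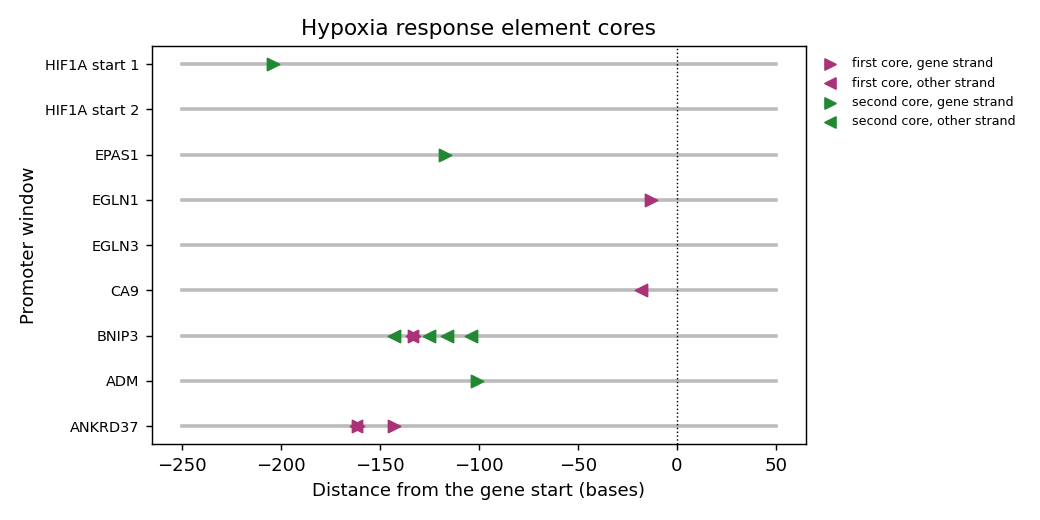
Position of hypoxia response element cores in the 9 RefSeq promoter windows, in bases from the gene start (dotted line). Magenta triangles mark ACGTG and green triangles GCGTG, pointing right for the strand of the gene and left for the other strand. An overlapping pair on both strands is drawn as magenta triangles of both directions that nearly coincide. BNIP3 and ANKRD37 hold the most cores, and EGLN3 and the second HIF1A start hold none.

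The libraries held between 33268860 and 40928176 counts, so that 3 counts were worth 0.0720 to 0.0921 CPM, the counts divided by a library size that was scaled with TMM factors and expressed in the usual CPM unit. ERBB2, GATA3, FOXA1, SPDEF, KRT8, KRT18, KRT19, EPCAM and TFAP2B, listed as markers of luminal apocrine breast cancer cells, exceeded 1 CPM in every library. Of 12 markers of immune, endothelial and stromal cells, 10 were listed, and only CD68 and COL1A1 exceeded 1 CPM in every library. Their summed level was 42.2 to 44.4 CPM in control and 46.8 to 54.5 CPM in 25(OH)D, where CD68 was at 15.9 ± 3.18 CPM against 4.93 ± 0.821 in control and COL1A1 at 33.1 ± 1.19 CPM against 37.5 ± 1.39 (SD, n = 3). Mitochondrial genes took 7.85% to 7.99% of counts in control and 8.89% to 9.24% in 25(OH)D. The part of these shifts in the values below was not tested. In bulk RNA, a lower level in every cell cannot be told apart from fewer cells that express a gene.

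After culture with 25(OH)D, the hypoxia response genes did not move in 1 direction. EGLN3 and NDRG1 had the largest falls, VEGFA and BNIP3 also fell, EGLN1 and EPAS1 rose, and HIF1A and ANKRD37 did not pass the test. In all, 8 of the 10 members passed the low-count filter and were tested, while CA9 and ADM did not pass it. With p-values of edgeR's quasi-likelihood test adjusted by Benjamini-Hochberg over 18183 genes, 6 of the 8 had an adjusted p under 0.05, 2 of them higher and 4 lower. Of all genes tested, 33.8% were called at that threshold, 17.3% higher and 16.5% lower. At an absolute log2 fold change over 1 with an unadjusted p under 0.05, 2 members were called, both lower, namely EGLN3 and NDRG1. Of all genes, 6.65% passed these limits, 2.63% lower and 4.02% higher, and 0 members were higher by edgeR or by DESeq2. EPAS1 and EGLN1 were higher at an unadjusted p under 0.05 with smaller changes. The CPM values of the groups did not overlap for 7 of the 8 members tested, against 45.7% of all genes. The median log2 fold change of the 8 members was -0.33, beside -0.01 over all genes tested.

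**Figure D2:**
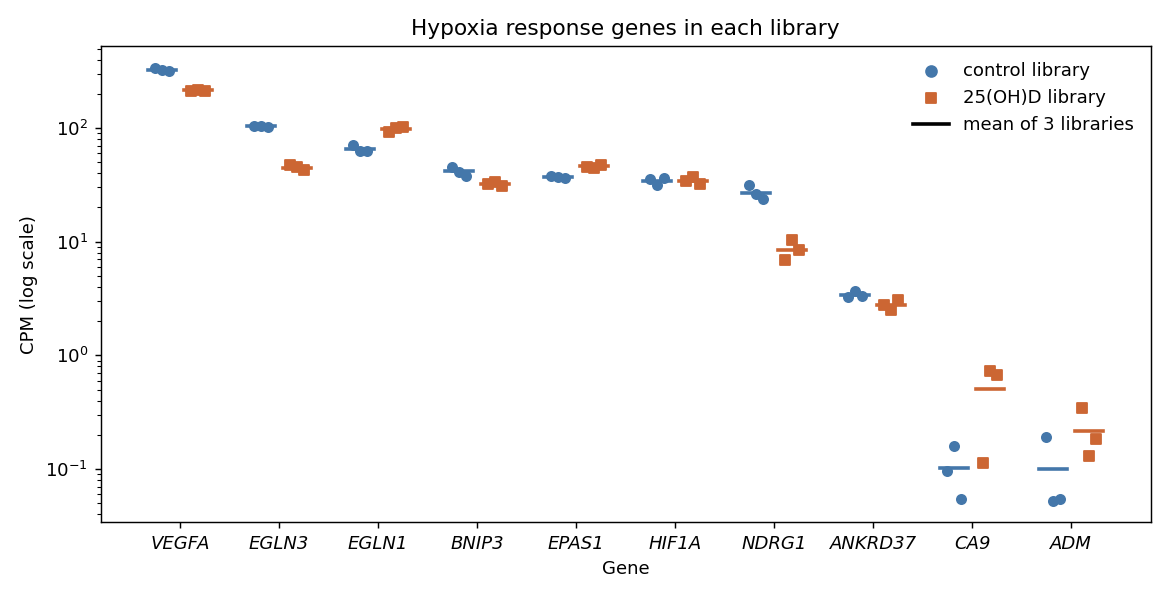
CPM of the 10 hypoxia response genes in each library on a log scale, with circles for the 3 control libraries, squares for the 3 25(OH)D libraries and bars for the group means, ordered by the mean in control. The groups separate for 7 genes and overlap for HIF1A, CA9 and ADM, and the last pair lie below 1 CPM in every library.

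Of the genes of the oxygen-regulated alpha subunits, EPAS1 rose and HIF1A did not pass the test. HIF1A (chr14:61695513-61748259) was at 35.4, 31.8 and 36.3 CPM in the 3 control libraries and at 34.2, 37.0 and 31.9 CPM in the 3 libraries with 25(OH)D. The groups overlapped throughout. The log2 fold change was -0.0046 with a 95% interval of -0.16 to 0.15 (SE 0.07, adjusted p = 0.970, edgeR's quasi-likelihood test), and only 1.12% of the genes tested had a smaller absolute change. HIF1A shares 117 exon bases with the antisense gene HIF1A-AS1, which had 55 to 80 counts a library. It also shares 148 bases with RP11-618G20.1 on its own strand. That gene had 618 to 961 counts a library, beside 1041 to 1476 for HIF1A (log2 fold change -0.08, adjusted p = 0.504, edgeR's quasi-likelihood test). EPAS1 (chr2:46293667-46386703), which encodes the other widely studied alpha subunit, was at 38.1, 37.0 and 36.6 CPM in control and at 45.8, 44.1 and 47.7 CPM with 25(OH)D. Every 25(OH)D library stood above every control library, and the change was a rise of 23.1% (log2 fold change 0.30, SE 0.06, adjusted p = 8.17e-04, edgeR's quasi-likelihood test). Compared per length, the EPAS1 level divided by the HIF1A level was 0.763 ± 0.0550 in control and 0.946 ± 0.106 with 25(OH)D (RPKM ratio, SD, n = 3). The ratios did not overlap, with the lowest value in 25(OH)D at 0.840 and the highest in control at 0.820, and the two-sided exact permutation test gave p = 0.1, the smallest that 3 libraries against 3 allow.

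The genes of the prolyl hydroxylases moved in opposite directions. EGLN1 (chr1:231363751-231425044), which encodes the main oxygen sensor of the family, was at 70.8, 63.1 and 62.6 CPM in control and at 92.6, 101 and 103 CPM with 25(OH)D. All 3 libraries with 25(OH)D were higher, by 50.8% on average (log2 fold change 0.59, SE 0.06, adjusted p = 2.29e-06, edgeR's quasi-likelihood test). EGLN3 (chr14:33924231-34462774), a hydroxylase whose gene is itself a known HIF target, was at 105, 105 and 103 CPM in control and at 46.8, 45.2 and 42.6 CPM with 25(OH)D. The highest 25(OH)D library was thus far below the lowest control library. EGLN3 fell by 56.9% (log2 fold change -1.21, SE 0.05, adjusted p = 1.78e-10, edgeR's quasi-likelihood test), and 95% of the genes tested changed less. EGLN2, which completes the family and was not among the members, rose from 48.4 ± 1.48 to 59.1 ± 2.76 CPM (log2 fold change 0.29, SE 0.05, adjusted p = 9.00e-04, same test).

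The makeup of the hydroxylase mRNAs thus shifted, while their sum stayed between 27.1 and 31.8 RPKM in the 6 libraries. Per length, the 3 genes together were at 31.0 ± 0.703 RPKM in control and 28.2 ± 1.02 RPKM with 25(OH)D (SD, n = 3). RPKM leaves out the TMM factors, which were 1.010 to 1.018 in control and 0.980 to 0.993 with 25(OH)D. The sum with 25(OH)D therefore stands lower beside control than it would with TMM scaling. EGLN3 took 46.3% ± 0.689 of this sum in control and 21.3% ± 1.55 with 25(OH)D, EGLN1 took 29.5% ± 1.48 and 47.4% ± 1.35, and EGLN2 took 24.1% ± 1.11 and 31.3% ± 0.510. The EGLN3 level divided by the EGLN1 level was 1.47, 1.64 and 1.62 in control and 0.499, 0.442 and 0.410 after culture with 25(OH)D. EGLN3 was therefore the more abundant of the pair in every control library and the less abundant in every 25(OH)D library. Each of these sums, shares and ratios separated the groups without overlap, at the smallest exact permutation p of 0.1. They are built from the same gene values as above. With EGLN1 higher and EGLN3 lower in every 25(OH)D library, their ratio had to separate, so its p adds no support. Among all single genes tested, CPM values separated the groups in 45.7%. The EGLN1 and EGLN3 windows printed above differ in that 1 core stands in EGLN1 and none in EGLN3, and these letters were not tested against the changes.

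**Figure D3:**
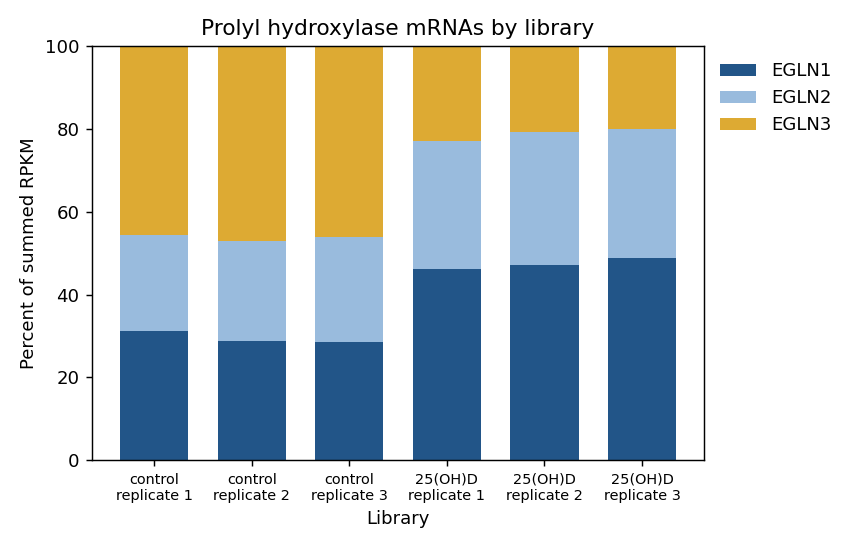
Share of EGLN1, EGLN2 and EGLN3 in the summed RPKM of the 3 prolyl hydroxylase genes in each library, as stacked bars from 0 to 100 percent. EGLN3 holds 45.7% to 47.1% of each control bar and 20% to 23% of each 25(OH)D bar.

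Among the secreted products, VEGFA (chr6:43770184-43786487), the principal growth factor for blood vessels, was the most abundant member per length in both groups. It was at 339.9, 325 and 315 CPM in control and at 212, 217 and 212 CPM with 25(OH)D. The 25(OH)D libraries lay close together and below all control libraries. VEGFA fell by 34.6% (log2 fold change -0.61, SE 0.04, adjusted p = 2.06e-08, edgeR's quasi-likelihood test). A gene of 188 bases, RP1-261G23.7, lies entirely within VEGFA exons on the opposite strand and had 1798 to 3669 counts a library, with a log2 fold change of -0.67 (adjusted p = 3.60e-07, same test). The library kit marked strand, but the strand setting of the counting is not given in the sources used here, so reads of these genes cannot be told apart. VEGFB, a related ligand, was at 14.5 ± 0.826 and 13.2 ± 1.09 CPM and did not pass the test (log2 fold change -0.13, adjusted p = 0.277, edgeR's quasi-likelihood test), and the VEGFA level divided by the VEGFB level was 2.41 ± 0.143 in control and 1.74 ± 0.146 with 25(OH)D (RPKM ratio, n = 3, exact permutation p = 0.1).

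ADM (chr11:10304680-10307397), which encodes the vasodilator peptide adrenomedullin, was close to the limit of detection. Control gave 8, 2 and 2 counts of ADM and 25(OH)D gave 12, 5 and 6, which overlapped. At this depth no difference was detectable (log2 fold change 1.08, adjusted p = 0.523 by edgeR's quasi-likelihood test without the low-count filter). Of 14 further ligands and receptors of the VEGF and adrenomedullin systems, 11 were listed and 6 tested, of which 1 rose and 2 fell (3 of 6 called, against 33.8% of all genes), with a median log2 fold change of -0.19. NRP1, a co-receptor for VEGF, rose from 9.94 ± 0.964 to 21.2 ± 1.37 CPM (log2 fold change 1.09, SE 0.09, adjusted p = 3.60e-07). ADM2, which encodes intermedin, a peptide related to adrenomedullin, fell from 13.0 ± 0.262 to 4.52 ± 0.623 CPM (log2 fold change -1.52, SE 0.11, adjusted p = 1.27e-07). The other gene that fell was VEGFC, a growth factor for lymphatic vessels, at 5.63 ± 0.197 and 2.01 ± 0.643 CPM (log2 fold change -1.47, adjusted p = 4.62e-05, edgeR's quasi-likelihood test), named after its value was seen. FLT1 and KDR, the main VEGF receptor genes of endothelial cells, were under the filter.

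The remaining members act inside the cell or at its surface. NDRG1 (chr8:133237171-133302022), a stress-induced gene linked to differentiation and used as a marker of hypoxia, had the largest change among the 8 members tested. It was at 31.2, 26.2 and 23.8 CPM in control and at 6.86, 10.3 and 8.41 CPM with 25(OH)D. The groups were far apart although each spread widely for its level. NDRG1 fell by 68.5% (log2 fold change -1.67, SE 0.13, adjusted p = 2.09e-07, edgeR's quasi-likelihood test), and 97.4% of the genes tested changed less. On log2(RPKM + 1) values, a scale that understates the change of low genes, limma gave a log2 fold change of -1.03. NDRG3, a relative in the same family, rose from 18.1 ± 0.579 to 23.5 ± 0.755 CPM (log2 fold change 0.38, SE 0.07, adjusted p = 6.76e-04, edgeR's quasi-likelihood test).

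BNIP3 (chr10:131966455-131982013), a mitochondrial outer membrane protein that recruits the machinery of mitophagy, was at 45.2, 41.2 and 38.0 CPM in control and at 32.2, 33.7 and 30.9 CPM with 25(OH)D. All 25(OH)D libraries were lower, and the fall of 22.2% passed the test (log2 fold change -0.36, SE 0.07, adjusted p = 0.00102, edgeR's quasi-likelihood test). BNIP3L, its paralog with a like role, also fell, from 31.4 ± 1.90 to 26.9 ± 1.08 CPM (log2 fold change -0.22, adjusted p = 0.0189, same test). The level of BNIP3 divided by that of BNIP3L was 1.07 ± 0.0367 in control and 0.971 ± 0.0235 with 25(OH)D (RPKM ratio, n = 3, exact permutation p = 0.1). Of the 100-base stretches of BNIP3 transcripts, 3.39% also occur in the pseudogene BNIP3P1, and the 16 listed BNIP3 pseudogenes together had 29 to 83 counts a library, beside 1006 to 1881 for BNIP3.

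ANKRD37 (chr4:185396021-185400628), a small ankyrin repeat protein whose gene is a direct HIF target, was at 3.29, 3.65 and 3.31 CPM in control and at 2.79, 2.52 and 3.10 CPM with 25(OH)D. The groups did not overlap, yet the difference did not pass the test (log2 fold change -0.29, 95% interval -0.64 to 0.06, adjusted p = 0.199, edgeR's quasi-likelihood test). With 97 to 138 counts a library its interval was the widest of the 8 members. ANKRD37 shares 909 of its 2580 exon bases, or 35.2%, with UFSP2 on the opposite strand, which fell (log2 fold change -0.53, adjusted p = 9.44e-04, same test), and without the strand setting their reads cannot be told apart. The promoter with 3 ACGTG matches, among them the overlapping pair, belonged to a gene whose level was low in both groups. The matches were not tested against the level.

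CA9 (chr9:35673856-35681159), the membrane carbonic anhydrase that serves as a clinical marker of tumour hypoxia, had 4, 6 and 2 counts in control and 4, 28 and 22 counts with 25(OH)D. The higher counts came from replicates 2 and 3 of 25(OH)D, and replicate 1 lay within the control range. Without the low-count filter the log2 fold change was 2.26 with an adjusted p of 0.00507 by edgeR's quasi-likelihood test, and CA9 would then join EPAS1 and EGLN1 among the members called higher, 3 in all. That fit gave a smaller adjusted p than the main fit for every member called in the main fit. For EGLN1 it was 1.45e-24 against 2.29e-06 (same test). A two-sided exact permutation test on the CPM values of CA9 gave p = 0.2. With 1 library left out at a time, CA9 did not pass the filter when replicate 2 or replicate 3 of 25(OH)D was absent. In the other 4 fits its adjusted p was 0.00362 without 25(OH)D replicate 1, and 0.0599, 0.0383 and 0.0741 without control replicates 1, 2 and 3. CA9 also shares 643 of its 1670 exon bases (38.5%) with ARHGEF39 on the opposite strand, which had 545 to 686 counts a library and a log2 fold change of -0.10. The carbonic anhydrase gene CA12, another HIF target, was at 239 ± 11.3 CPM in control and 217 ± 3.73 CPM with 25(OH)D (log2 fold change -0.14, adjusted p = 0.0177, edgeR's quasi-likelihood test), and was named after its value was seen.

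**Figure D4:**
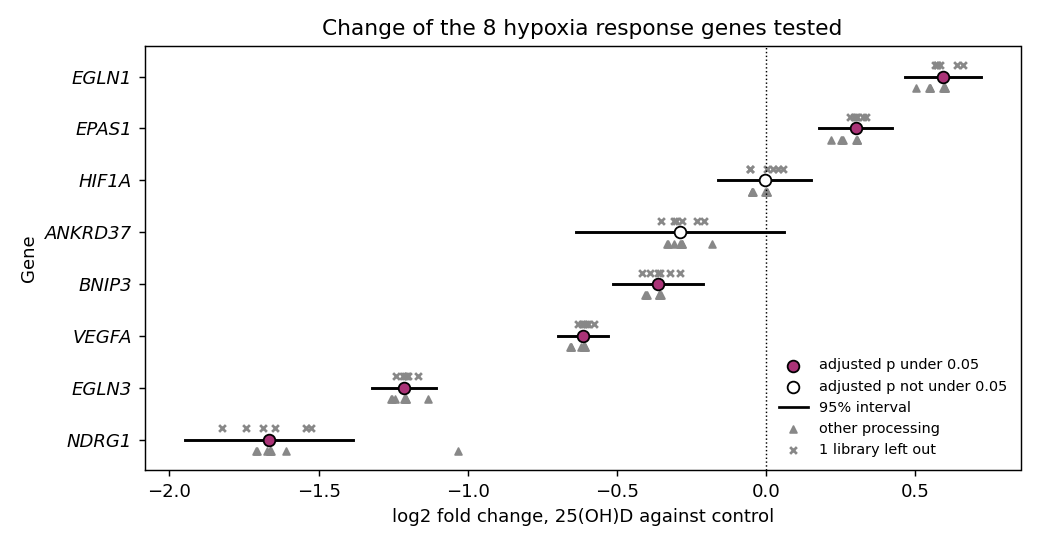
Log2 fold change of 25(OH)D against control for the 8 hypoxia response genes tested, with 95% intervals from edgeR as bars, filled circles for an adjusted p under 0.05, triangles for other processing and crosses for fits with 1 library left out. EGLN1 and EPAS1 stay to the right of 0 and NDRG1, EGLN3, VEGFA and BNIP3 to the left under every setting drawn, while HIF1A lies on both sides.

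The order of the members by level per length changed with these differences. In control, mean RPKM ran from VEGFA at 23.0 through EGLN3 at 14.3, EGLN1 at 9.14, BNIP3 at 7.90, HIF1A at 6.80, EPAS1 at 5.17, NDRG1 at 2.80 and ANKRD37 at 1.34 to CA9 at 0.0627 and ADM at 0.0373. Only CA9 and ADM, among neighbours in that order, overlapped between libraries. With 25(OH)D the order was VEGFA at 14.6, EGLN1 at 13.4, HIF1A at 6.57, EPAS1 at 6.18, EGLN3 at 6.0, BNIP3 at 5.96, ANKRD37 at 1.07, NDRG1 at 0.853, CA9 at 0.298 and ADM at 0.0790. Here HIF1A and EPAS1, EPAS1 and EGLN3, EGLN3 and BNIP3, ANKRD37 and NDRG1, and CA9 and ADM overlapped, so these neighbours did not differ beyond their spread. The level of VEGFA was above those of 88.7% of the genes tested in control and of 83.0% with 25(OH)D, and that of NDRG1 went from 48.7% to 25.6%.

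The other genes of the oxygen-sensing machinery were called in a share close to that of all genes. Of 19 genes for HIF partners, hydroxylases, the VHL complex and HIF cofactors, 16 were tested, of which 3 rose, 2 fell and 11 did not pass the test, with a median log2 fold change of 0.11, beside -0.01 over all genes tested. The share called was 31.25%, against 33.8% of all genes, and 5 of the list rose without the low-count filter or without control replicate 3. The stable partner gene ARNT was at 43.1 ± 1.49 and 46.8 ± 3.31 CPM, which overlapped (log2 fold change 0.12, adjusted p = 0.178, edgeR's quasi-likelihood test). HIF3A, which encodes another alpha subunit, and ARNT2 were under the filter, with 0 to 4 and 2 to 8 counts a library. VHL, the adaptor that captures hydroxylated alpha subunits, fell from 40.0 ± 0.698 to 33 ± 0.886 CPM (log2 fold change -0.28, SE 0.06, adjusted p = 0.00155), and CREBBP, a HIF coactivator, fell with a log2 fold change of -0.24 (adjusted p = 0.00133). OS9, a lectin of endoplasmic reticulum quality control that has been linked to HIF turnover, rose from 697 ± 15.5 to 978 ± 11.3 CPM (log2 fold change 0.49, SE 0.03, adjusted p = 3.53e-08). The other genes that rose were EGLN2 and CITED2, an inhibitor of HIF coactivator binding (log2 fold change 0.36, adjusted p = 0.00140, edgeR's quasi-likelihood test), the latter named after its value was seen. HIF1AN, the asparaginyl hydroxylase that blocks HIF activity, and P4HTM, a membrane-bound prolyl hydroxylase, had log2 fold changes of 0.10 and 0.12 with adjusted p of 0.113 and 0.314.

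Other known HIF targets were called in both directions. Of 48 such genes outside glycolysis, 45 were listed and 41 tested, of which 8 rose, 10 fell and 23 did not pass the test, with a median log2 fold change of 0.04. The share called was 43.9%, against 33.8% of all genes (17.3% higher and 16.5% lower). STC2, a secreted glycoprotein, fell from 30.5 ± 1.31 to 8.63 ± 0.0638 CPM (log2 fold change -1.82, SE 0.07, adjusted p = 1.40e-10), a change of the size seen for NDRG1. EDN1, the precursor of the vasoconstrictor endothelin, fell with a log2 fold change of -1.32 (SE 0.09, adjusted p = 6.48e-08), and NDUFA4L2, a mitochondrial protein induced in low oxygen, with -1.48 (SE 0.16, adjusted p = 6.39e-06). INSIG2, a regulator of sterol synthesis, rose from 49.8 ± 1.39 to 88.6 ± 1.95 CPM (log2 fold change 0.83, SE 0.05, adjusted p = 7.98e-09). AK4, a mitochondrial adenylate kinase, and P4HA1, a collagen prolyl hydroxylase, rose with log2 fold changes of 0.61 (adjusted p = 1.94e-06) and 0.31 (adjusted p = 5.85e-05). STC2, EDN1 and NDUFA4L2 were named as the genes of this list with the smallest p among those that were lower. INSIG2, AK4 and P4HA1 were named in the same way among those that were higher. Their directions were thus set by the choice.

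Genes of glucose uptake and glycolysis, which are also classical HIF targets, were also called in both directions. Of 24 listed, 23 were tested, of which 8 rose, 2 fell and 13 did not pass the test, with a median log2 fold change of 0.11, and with library sizes alone in place of TMM factors 8 rose and 4 fell. The share called was 43.5%, against the same 33.8% of all genes (17.3% higher and 16.5% lower), and more of this list rose than fell. ALDOA, PKM and PFKP, enzymes of the glycolytic pathway, rose with log2 fold changes of 0.51, 0.48 and 0.45 (adjusted p = 5.08e-07, 1.17e-07 and 3.32e-06). PFKFB3, which makes the activator of phosphofructokinase, fell from 84.4 ± 2.40 to 40.6 ± 3.91 CPM (log2 fold change -1.05, SE 0.07, adjusted p = 1.62e-08), and SLC2A1, the glucose transporter gene, fell from 20.5 ± 1.73 to 15.0 ± 1.11 CPM (log2 fold change -0.45, SE 0.09, adjusted p = 8.63e-04). PFKL, the liver-type phosphofructokinase gene, was at 148 ± 3.33 and 140.1 ± 2.13 CPM (log2 fold change -0.08, adjusted p = 0.132, edgeR's quasi-likelihood test). Among 15 paralogs of the members, which overlap with the preceding lists, 10 were tested, of which 3 rose, 4 fell and 3 did not pass the test (70.0% called, against 33.8% of all genes), with a median log2 fold change of -0.14. Without control replicate 1, 2 of the paralogs fell.

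**Figure D5:**
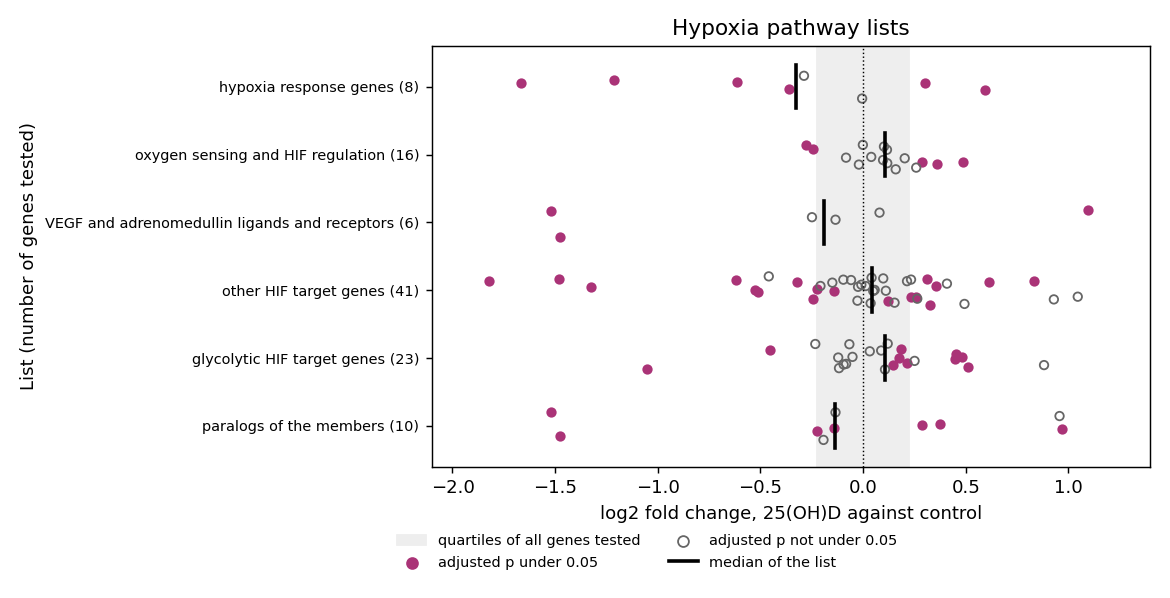
Log2 fold change of each gene tested in the hypoxia response genes and 5 further lists, with filled points for an adjusted p under 0.05, a bar for the median of each list and a grey band for the quartiles of all 18183 genes tested. The medians run from -0.33 for the hypoxia response genes to 0.11 for the oxygen-sensing and glycolytic lists, and each list holds genes called in both directions.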

How the data were processed

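Groups of the mRNA libraries (3 with 25(OH)D and 3 control, 5 days) were taken from the sample labels. The dose of 100 nM and the solvent are those given in the study's methods. The authors deposited raw counts of reads per gene and RPKM values, which equalled the count divided by gene length and library total (largest relative difference 2.23e-13). Per the labels, a stranded kit was used, and the submitters' processing notes name Trimmomatic 0.36, featureCounts of Subread 1.5.1, edgeR 3.12.1 and GRCh38. The aligner, the annotation release and the strand setting of counting are not given in the sources used here. Spans of all 10 members were identical to GENCODE 29.

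For the counts, edgeR 4.0.16 was run in R 4.3.3 (TMM, filterByExpr with a minimum count of 10, quasi-likelihood test without covariates, Benjamini-Hochberg over 18183 genes). The biological coefficient of variation was 0.0788. CPM used TMM-scaled library sizes. Totals of 33268860 to 40928176 counts limit precision for CA9 and ADM. Alternatives were DESeq2 1.42.0, limma 3.58.1 on log2 RPKM, other scalings, no filter, a replicate block and each library left out. Ratios were compared by two-sided exact permutation tests in scipy 1.17.1. Exon overlaps came from the exon positions deposited with the counts, shared stretches of 100 bases from GENCODE 29 transcripts, and promoters from RefSeq. ELOB and ELOC were matched through older symbols. The members and lists were chosen with earlier results of these data known. Genes named were all members, HIF subunits, hydroxylases and VHL, the gene with the smallest p in each direction of each list, and the next 2 for other HIF targets and glycolysis. A further marker is not reported here. Genes named after their values were seen are so marked, and VEGFB and BNIP3L were named for the ratios.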

Additional observations from a re-analysis of the deposited data

How the results depend on the processing

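Every member called at an adjusted p under 0.05 kept its call and its direction under the 8 alternatives of processing and in the 6 fits with 1 library left out, and ANKRD37 and HIF1A were called in none. HIF1A, with a log2 fold change of -0.0046, changed sign to 0.0017 with DESeq2 size factors and 0.0018 with the DESeq2 test, and ranged from -0.0553 to 0.0564 with 1 library left out. The number of members past the fold and p limits on the higher side went from 0 to 1 without the low-count filter, and ranged from 0 to 1 with 1 library left out, because CA9 then passed the filter, which it did not without 25(OH)D replicate 2 or 3. Genes of oxygen sensing that rose went from 3 to 5 without the filter and ranged from 3 to 5 with 1 library left out (5 without control replicate 3). Glycolytic genes that fell went from 2 to 4 with library sizes alone and with limma on log2(RPKM + 1) and log2(RPKM + 0.1), among them PFKL, whose adjusted p was then 0.0251, 0.0424 and 0.0432, as it was 0.0295 with upper-quartile factors. Paralogs that fell, 4 in all libraries, ranged from 2 to 5 with 1 library left out (2 without control replicate 1). Where no reason is given, the cause was not tested. Libraries with the same replicate number did not deviate together (correlations -0.0721, -0.0120 and -0.0460). The labels do not say whether the numbers pair the libraries, and these correlations cannot decide it. With the replicate number as a block, 2 members were higher and 4 lower, and all genes called were 3057 higher and 2896 lower, beside 3138 and 3004 without it. Depth limits CA9, ADM and, less so, ANKRD37.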
